A study of Mus musculus with 32 samples.

Results

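The liver transcripts described here belong to 9 genes of alcohol and vitamin A metabolism: Rbp4, Adh1, Adh4, Adh5, Rdh16, Aldh1a1, Aldh1a2, Aldh1a7 and Cyp26a1. They were chosen by gene symbol and make up 9 of the 41585 gene entries in each of the count tables, one for females and one for males. The libraries came from livers of wildtype (WT) mice and of Cyp2b-null mice, which lack the adjacent genes Cyp2b9, Cyp2b10 and Cyp2b13 after CRISPR/Cas9 deletion, both on a C57BL/6 background (C57Bl/6J in the methods of the study). From 10 weeks of age the mice received normal chow (ND), in which fat made up 6.2%, or the CDAHFD, a high-fat diet without choline in which defined L-amino acids take the place of protein. The CDAHFD held fat at 62% and methionine at 0.1% and is used to model nonalcoholic steatohepatitis. Whether these percentages are by weight or by energy is not stated in the methods, so 6.2% and 62% may not share a scale. Feeding lasted 8 weeks in every group. Genotype, diet and sex gave 8 groups of 4 libraries each, 32 in all: ND-fed WT, CDAHFD-fed WT, ND-fed Cyp2b-null and CDAHFD-fed Cyp2b-null mice of either sex. The WT mice were purchased, and where the Cyp2b-null mice were bred is not given in the sources used here. The vitamin A content of the diets is not given in the sources used here.

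Vitamin A circulates as retinol bound to retinol-binding protein 4 (RBP4), which hepatocytes secrete together with transthyretin. Inside cells retinol is oxidized reversibly to retinal by alcohol dehydrogenases of the cytosol and by membrane-bound retinol dehydrogenases, and retinal is oxidized irreversibly to retinoic acid by aldehyde dehydrogenases of the ALDH1A family. Retinoic acid activates the nuclear receptors RAR and RXR, and it is cleared by CYP26 enzymes, whose gene Cyp26a1 is a classical retinoic acid target. The liver is the main store of vitamin A, held as retinyl esters in stellate cells, and its alcohol dehydrogenases also oxidize ethanol and other alcohols.

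The libraries held between 2906411 and 10166959 counts assigned to genes, with group medians from 4221233.5 to 7071745. Cyp2b9 was counted 2 to 18 times in the Cyp2b-null libraries against 683 to 3530 times in WT females and 118 to 364 times in CDAHFD-fed WT males. In ND-fed WT males Cyp2b9 was counted 0 to 15 times and therefore did not separate the genotypes. There Cyp2b10 did, with 33 to 97 counts in ND-fed WT males and 1 to 9 counts in ND-fed Cyp2b-null males. One library stood apart from its group, that of CDAHFD-fed Cyp2b-null female replicate 3, with a mean rank correlation of 0.9421 with the other libraries of its group against at least 0.9642 in the other 31 libraries. The labels do not say whether each library came from its own mouse, so the p-values below measure only the spread between these libraries. Levels are given as CPM, the counts of a gene relative to the depth of the library, scaled by the trimmed mean of M-values (TMM) within the table of each sex. Changes are log2 fold changes with their standard error (SE) from the quasi-likelihood test of edgeR, called where the p-value adjusted over all genes tested was below 0.05. Since RNA came from whole liver, fewer cells of a type and less RNA per cell cannot be told apart.

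The summed levels of several lists of cell type markers differed between the diets. Of 8 hepatocyte markers, none was at 0 in any library. Their summed level was lower on CDAHFD in all 4 diet comparisons without overlap between groups, with 139400 to 209700 CPM in ND-fed WT females and 92760 to 114100 CPM in CDAHFD-fed WT females, and 5, 6, 6 and 4 of the 8 markers were called lower in WT females, Cyp2b-null females, WT males and Cyp2b-null males. The summed level of 11 stellate cell markers was higher on CDAHFD, with 456 to 578 CPM on ND and 686 to 900.0 CPM on CDAHFD in WT females and 199.6 to 311 CPM and 523 to 764 CPM in WT males. Of these markers 5, 6, 5 and 8 were called higher in the same order of comparisons. Lrat, which is among them, was not called in any of these comparisons. Over all genes tested, 13.9, 16.9, 18 and 20.3% were called higher in that order, and 10.2, 13.9, 15 and 17.1% lower. The 8 macrophage markers summed to 110 to 196 CPM in ND-fed WT males and 467 to 981 CPM in CDAHFD-fed WT males, with Trem2 listed at 0 in every library. The 5 cholangiocyte markers summed to 20.4 to 62.0 CPM over the ND groups and 97.6 to 313 CPM over the CDAHFD groups. The 5 endothelial markers summed to 195.8 to 243.8 CPM in ND-fed WT females and 143.7 to 195.5 CPM in CDAHFD-fed WT females. In WT males they summed to 139.7 to 201.2 CPM on ND and 111.6 to 187.5 CPM on CDAHFD. Cyp2b-null females had 193.8 to 255.7 CPM on ND and 143.3 to 167.7 CPM on CDAHFD. In Cyp2b-null males the sums were 124.4 to 164 CPM on ND and 121.5 to 231.3 CPM on CDAHFD. Such sums can rest on a few abundant markers, and calls of single macrophage, cholangiocyte and endothelial markers are not given. Nor are calls of hepatocyte markers higher or of stellate cell markers lower. The 5 mesothelial markers summed to at most 18.1 CPM in any library, and the 6 lymphocyte markers to at most 14.1 CPM. Of 8 periportal hepatocyte markers 6, 3, 4 and 4 were called lower and 2 higher in each comparison, and of 8 pericentral markers 3, 1, 0 and 2 were called lower and 1, 1, 4 and 2 higher. What part these shifts had in the changes below was not tested.

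Compared per length, as mean CPM per kilobase of exon, the 9 genes spanned several orders of magnitude. Rbp4 was the most abundant in all 8 groups, with group means of 1915 to 2970 CPM per kilobase, followed by Adh1 with 1008 to 2047 and Aldh1a1 with 421 to 999. Adh5 had 175 to 305 CPM per kilobase, Adh4 86.7 to 171, and Aldh1a7 79.4 to 161. Rdh16 reached 28.0 to 69.0 and Cyp26a1 4.32 to 18.4 CPM per kilobase. Adh4 and Aldh1a7 had ranges that overlapped, so their order was not the same in every group. Aldh1a2, at 0.0373 to 0.270 CPM per kilobase, was near the limit of detection. Among the 3 alcohol dehydrogenases, Adh1 made up 83.1 to 85.1% of the summed level per length in the female groups and 75.2 to 78.6% in the male groups, whereas Adh4 made up 3.85 to 5.62% in females and 7.79 to 9.13% in males.

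**Figure D1:**
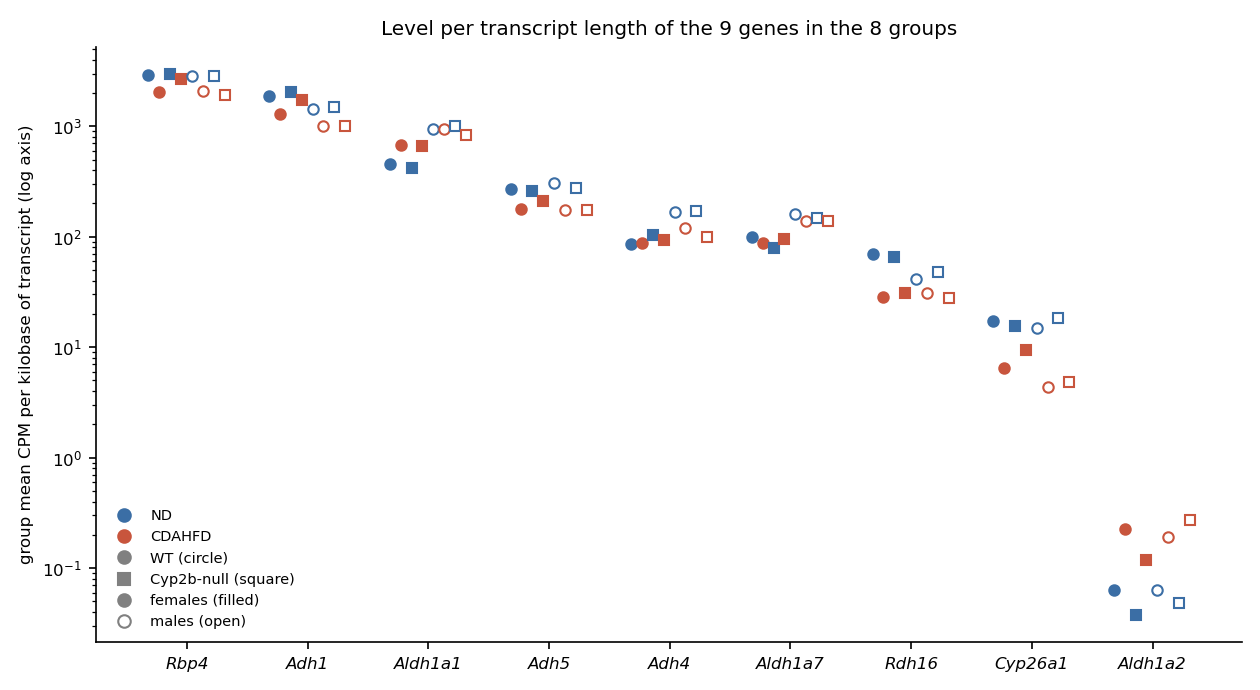
Level of each gene in mean CPM per kilobase of exon (log axis) in the 8 groups, each point being the mean of 4 libraries scaled within the table of its sex. Rbp4 lies highest at 1915 to 2970 and Aldh1a2 lowest at 0.0373 to 0.270 CPM per kilobase.

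The first question was how the CDAHFD changed these genes within each sex and genotype. Of the 9 genes, 8 passed the filter on low counts in each table, and Aldh1a2 did not. In WT females 6 of these 8 were called, Aldh1a1 higher and Adh1, Adh5, Rbp4, Rdh16 and Cyp26a1 lower, while 24.1% of the 13226 genes tested were called, 13.9% higher and 10.2% lower. In Cyp2b-null females 2 were called, Aldh1a1 higher and Rdh16 lower, beside 30.8% of all genes tested, 16.9% higher and 13.9% lower. In WT males 6 were called, all lower (Adh1, Adh4, Adh5, Rbp4, Rdh16 and Cyp26a1), beside 33% of the 13460 genes tested, 18% higher and 15% lower. In Cyp2b-null males the same 6 were called lower, where 37.4% of all genes were called, 20.3% higher and 17.1% lower. The median log2 change of the 8 genes was -0.52, -0.20, -0.47 and -0.61 in WT females, Cyp2b-null females, WT males and Cyp2b-null males. The median over all genes tested, which is largely set by the TMM scaling, lay between -0.02 and 0.03. Since the members were chosen with earlier results of these data known, these figures are descriptions. Groups without overlap between diets are named below for single genes. Such separation was common, with 25.8, 30.6, 28.4 and 36.8% of all genes tested not overlapping in the same order. The comparisons were made within each sex with every library of that sex in the fit, and no called change turned sign under any alternative tried. Scaling by library size alone moved the median of all genes to between 0.28 and 0.37, and the number of the 8 genes called to 2 in WT females (1 higher, 1 lower), 3 in Cyp2b-null females (2 higher, 1 lower), 3 in WT males (1 higher, 2 lower) and 3 in Cyp2b-null males (all lower). The median of the 8 genes was then -0.20, 0.04, -0.09 and -0.25 in the same order.

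**Figure D2:**
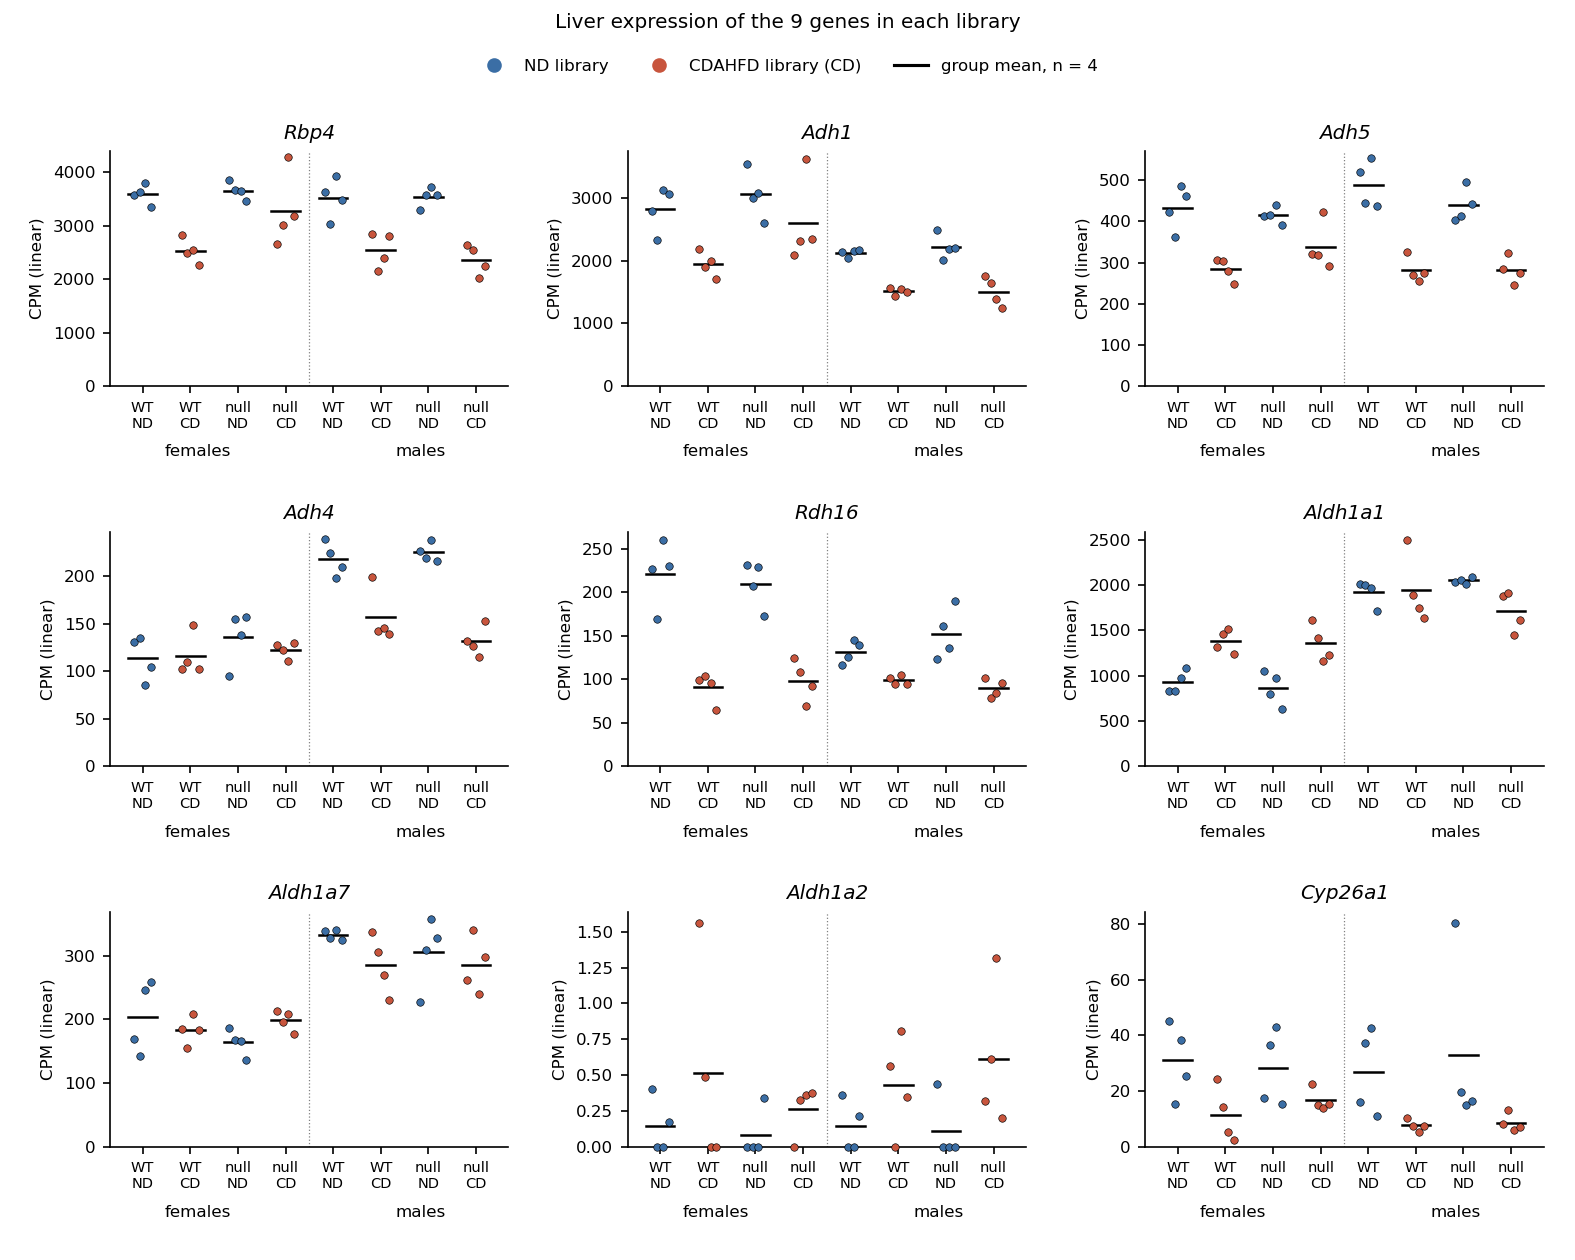
CPM of the 9 genes in each of the 32 libraries, 1 panel per gene, with groups along the horizontal axis, a point for each library and a bar at the group mean. Rdh16 fell from 169 to 260 CPM in ND-fed WT females to 64.6 to 103 CPM in CDAHFD-fed WT females, and Aldh1a1 of ND-fed males lay above that of ND-fed females.

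**Figure D3:**
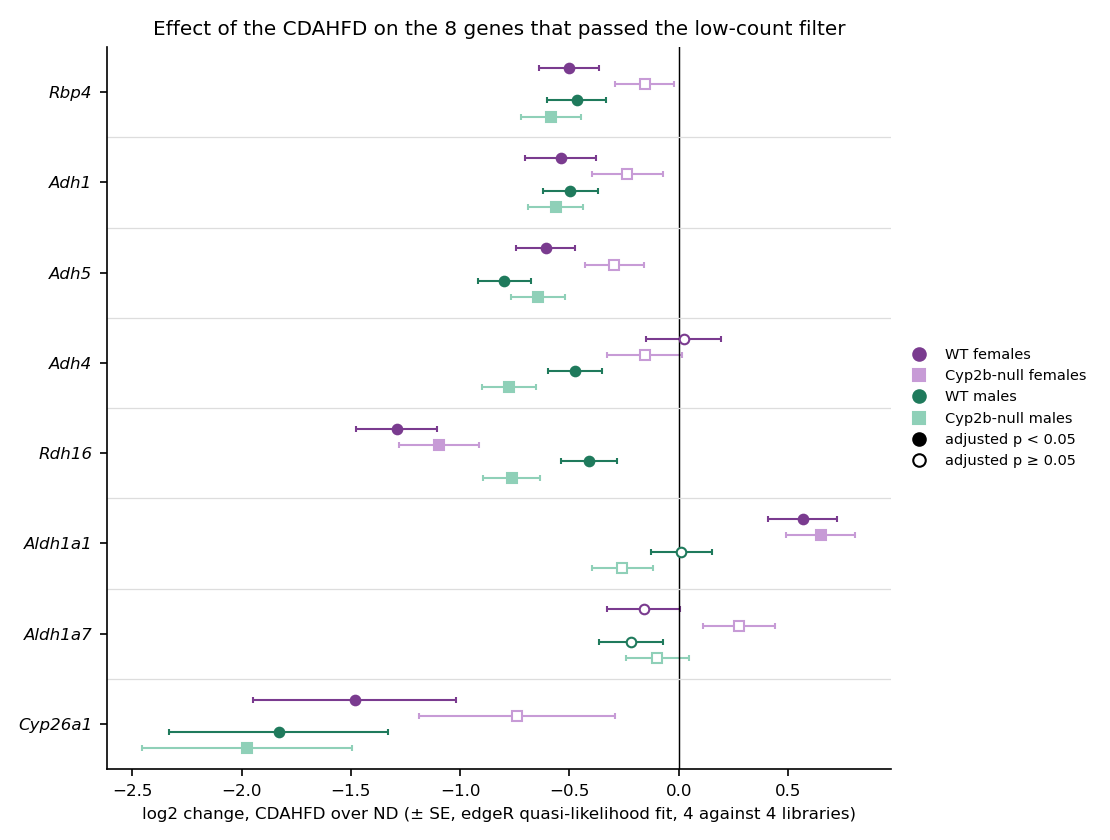
Log2 fold change of CDAHFD over ND for the 8 genes that passed the filter, in WT and Cyp2b-null mice of each sex, with bars of 1 SE and called changes marked. Rdh16 lies at -1.29 in WT females and -0.41 in WT males, and Cyp26a1 between -1.97 and -0.74.

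Rbp4 (Entrez 19662, protein coding, minus strand, GRCm38.p6 chr19:38116620-38125321) encodes the retinol carrier of blood. In replicates 1 to 4 of ND-fed WT females it measured 3580, 3637, 3801 and 3349 CPM, against 2824, 2492, 2550 and 2269 CPM after CDAHFD. WT males had 3638, 3041, 3927 and 3477 CPM on ND and 2836, 2155, 2390 and 2809 CPM on CDAHFD. Neither pair of groups overlapped, and Rbp4 fell by 0.50 (SE 0.137, adjusted p = 0.00968) in WT females and by 0.47 (SE 0.136, adjusted p = 0.0114) in WT males. Cyp2b-null males fell from 3288, 3566, 3732 and 3576 CPM to 2641, 2538, 2013 and 2247 CPM, a log2 change of -0.59 (SE 0.136, adjusted p = 0.00180). Under library size alone these calls were lost, at -0.18 (adjusted p = 0.257) in WT females, -0.08 (0.647) in WT males and -0.22 (0.161) in Cyp2b-null males. Cyp2b-null females measured 3859, 3664, 3648 and 3464 CPM on ND and 2654, 3015, 4282 and 3180 CPM on CDAHFD, where replicate 3, the library that stood apart, was higher than every ND library. Their log2 change of -0.16 (SE 0.137, adjusted p = 0.408) was not called, and without that library and CDAHFD-fed Cyp2b-null male replicate 4, both absent from the heat maps of the study, Rbp4 was called at -0.31 (adjusted p = 0.0435).

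Adh1 (Entrez 11522), Adh4 (26876) and Adh5 (11532) are protein-coding neighbours on the plus strand of chromosome 3, at chr3:138277585-138290698, chr3:138415456-138432683 and chr3:138437200-138455499. Adh1 encodes the class I enzyme, the main ethanol dehydrogenase of liver, which also accepts retinol. It measured 2793, 2325, 3120 and 3066 CPM in ND-fed WT females and 2181, 1895, 1986 and 1713 CPM in CDAHFD-fed WT females. ND-fed WT males had 2141, 2044, 2155 and 2168 CPM and CDAHFD-fed WT males 1565, 1428, 1542 and 1498 CPM. These groups did not overlap, and Adh1 fell by 0.54 (SE 0.163, adjusted p = 0.0187), or 1.45-fold, in WT females and by 0.50 (SE 0.125, adjusted p = 0.00411) in WT males. In Cyp2b-null males it went from 2490, 2017, 2181 and 2208 CPM to 1750, 1639, 1384 and 1244 CPM, again without overlap, a change of -0.56 (SE 0.125, adjusted p = 0.00118). Cyp2b-null females had 3538, 3002, 3079 and 2597 CPM on ND and 2086, 2316, 3625 and 2351 CPM on CDAHFD, with replicate 3 the highest of all 8 libraries. The change there was not called (log2 change -0.24, SE 0.163, adjusted p = 0.288), and was called at -0.44 (adjusted p = 0.0186) without the libraries absent from the heat maps. In WT females the call was lost on leaving out ND replicate 3, ND replicate 4 or CDAHFD replicate 4, with adjusted p between 0.0525 and 0.0595. Under library size alone all 3 calls of Adh1 were lost, at -0.22 (adjusted p = 0.261) in WT females, -0.10 (0.535) in WT males and -0.20 (0.222) in Cyp2b-null males.

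Adh5 encodes the class III enzyme, which removes formaldehyde and S-nitrosoglutathione and has little activity toward ethanol. ND-fed WT females measured 424, 363, 486 and 461 CPM and CDAHFD-fed WT females 306, 303, 281 and 247 CPM. In WT males the values were 519, 445, 555 and 437 CPM on ND and 327, 270, 256 and 274 CPM on CDAHFD. The groups did not overlap, and Adh5 fell by 0.61 (SE 0.135, adjusted p = 0.00197) in WT females and by 0.80 (SE 0.123, adjusted p = 3.69e-05), or 1.74-fold, in WT males. Cyp2b-null males moved from 404, 414, 497 and 442 CPM to 284, 322, 244 and 275 CPM, and Adh5 fell by 0.64 there (SE 0.123, adjusted p = 0.000290). In Cyp2b-null females the ND libraries had 414, 417, 439 and 392 CPM and the CDAHFD libraries 321, 319, 424 and 291 CPM. Replicate 3 of the CDAHFD group lay inside the ND range, and the change of -0.29 (SE 0.134, adjusted p = 0.102) was called at -0.42 (adjusted p = 0.0116) without the libraries absent from the heat maps. The calls were lost under library size alone in WT females (-0.29, adjusted p = 0.0843) and Cyp2b-null males (-0.28, adjusted p = 0.0619).

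Adh4 encodes the class II enzyme, which can also oxidize retinol. In females it ranged from 85.4 to 135 CPM in ND-fed WT, 102 to 149 CPM in CDAHFD-fed WT, 95.3 to 157 CPM in ND-fed Cyp2b-null and 111 to 130 CPM in CDAHFD-fed Cyp2b-null libraries. These groups overlapped, and the log2 changes with diet were 0.02 (SE 0.172, adjusted p = 0.945) in WT and -0.16 (SE 0.171, adjusted p = 0.519) in Cyp2b-null females. ND-fed WT males had 239, 225, 198 and 209 CPM and CDAHFD-fed WT males 199, 143, 146 and 139 CPM, with CDAHFD replicate 1 inside the ND range. Cyp2b-null males fell from 227, 219, 238 and 216 CPM to 131, 126, 115 and 153 CPM without overlap. Adh4 fell by 0.48 (SE 0.124, adjusted p = 0.00513) in WT males and by 0.78 (SE 0.124, adjusted p = 4.20e-05), or 1.71-fold, in Cyp2b-null males. In WT males the call was lost under library size alone, at -0.10 (adjusted p = 0.486). The test of the difference between WT males and WT females gave -0.48 (SE 0.213, adjusted p = 0.407), so a sex difference in the response of Adh4 was not called.

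Rdh16 (Entrez 19683, protein coding, plus strand, chr10:127801090-127815846) encodes a microsomal short-chain dehydrogenase that oxidizes retinol and some hydroxysteroids. Its promoter sequence is shown because Rdh16 was the member whose diet response was called as different between the sexes, and because among the 12 RefSeq promoter windows of the 9 genes it held the only match to TTCNNNGAA, the letters bound by STAT factors. The windows ran from 250 bases before to 50 bases after each start in the GRCm38.p6 table of RefSeq. The motif, which reads the same on both strands, lay at chr10:127800923-127800931, 230 to 222 bases before the RefSeq start of its window. That start lies inside the span of the gene given above, which begins farther upstream. The motif occurred in 2726 of all 32851 windows (8.3%), so 1 match among 12 windows is unremarkable and a match is no site by itself. Whether STAT factors bind there or have a part in the diet response was not tested. The bases below run from chr10:127800903-127801089 on the plus strand, with the motif in capitals.
Rdh16 promoter: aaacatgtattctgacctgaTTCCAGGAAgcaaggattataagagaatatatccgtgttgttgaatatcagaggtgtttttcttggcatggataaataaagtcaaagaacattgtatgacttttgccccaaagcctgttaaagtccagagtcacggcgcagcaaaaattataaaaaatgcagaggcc

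Rdh16 had the lowest adjusted p of the members in both female diet comparisons. ND-fed WT females measured 227, 169, 260 and 230 CPM (221 ± 37.9, SD, n = 4) and CDAHFD-fed WT females 99.5, 103, 95.3 and 64.6 CPM (90.7 ± 17.7). Cyp2b-null females moved from 231, 208, 229 and 172 CPM to 124, 108, 68.9 and 92.2 CPM. Every CDAHFD library lay below every ND library of its genotype, and Rdh16 fell by 1.29 (SE 0.184, adjusted p = 2.41e-05), or 2.45-fold, in WT females and by 1.10 (SE 0.183, adjusted p = 0.000128), or 2.14-fold, in Cyp2b-null females. ND-fed WT males began lower, at 117, 125, 145 and 139 CPM, and measured 102, 94.3, 105 and 94.9 CPM on CDAHFD. In Cyp2b-null males the values were 124, 161, 136 and 189 CPM on ND and 101, 78.7, 83.9 and 95.4 CPM on CDAHFD. The male groups did not overlap either, with changes of -0.41 (SE 0.130, adjusted p = 0.0186), or 1.33-fold, in WT and -0.76 (SE 0.130, adjusted p = 8.42e-05), or 1.70-fold, in Cyp2b-null males. In WT males the call was lost without ND replicate 3 (adjusted p = 0.0571) and the change was -0.02 under library size alone, where the median of all genes was 0.37. On CDAHFD the libraries of both sexes lay between 64.6 and 124 CPM, whereas on ND they lay between 169 and 260 CPM in females and between 117 and 189 CPM in males, on scales set separately for each sex.

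The diet response of Rdh16 in WT mice differed between the sexes by 0.90 (SE 0.229, adjusted p = 0.0428), the fall being larger in females. It was the only 1 of the 8 genes called in this test, in which 0.97% of the 14020 genes tested were called. The call was close to its threshold: with only the 4 groups compared in the fit it was not called (adjusted p = 0.0578), and of the 16 fits that left out 1 library it was called only in the 5 without ND-fed female replicate 2, ND-fed male replicate 3, CDAHFD-fed female replicate 1 or 2, or CDAHFD-fed male replicate 1. Over these 16 fits the adjusted p ran from 0.0187 to 0.109 and the direction did not change. Aldh1a1 differed by -0.53 (SE 0.208, adjusted p = 0.298), which was not called.

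Aldh1a1 (Entrez 11668, plus strand, chr19:20492583-20643463) encodes the main retinal dehydrogenase of liver, and Aldh1a7 (26358, minus strand, chr19:20692953-20727556) is its close copy next to it. Both are protein coding. Reads that fit both genes could have been split between them, since the handling of such reads is not given in the sources used here. Aldh1a1 was the only member called higher with diet. In ND-fed WT females it measured 836, 833, 977 and 1089 CPM (934 ± 124, SD, n = 4) and in CDAHFD-fed WT females 1315, 1465, 1516 and 1242 CPM (1384 ± 128). Cyp2b-null females had 1055, 801, 971 and 629 CPM on ND and 1614, 1411, 1165 and 1228 CPM on CDAHFD. Neither genotype overlapped between diets, and Aldh1a1 rose by 0.57 (SE 0.158, adjusted p = 0.0112), or 1.48-fold, in WT and by 0.65 (SE 0.158, adjusted p = 0.00373), or 1.57-fold, in Cyp2b-null females. ND-fed WT males measured 2012, 2003, 1969 and 1717 CPM and CDAHFD-fed WT males 2496, 1886, 1748 and 1637 CPM, which overlapped, with a change of 0.01 (SE 0.139, adjusted p = 0.957). Under library size alone that change was called higher, at 0.39 (adjusted p = 0.00942), beside a median of 0.37 over all genes. Cyp2b-null males had 2037, 2058, 2015 and 2094 CPM on ND and 1880, 1909, 1449 and 1619 CPM on CDAHFD. These did not overlap, but the change of -0.26 (SE 0.139, adjusted p = 0.156) was not called.

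Aldh1a7 was not called with diet in any of the 4 comparisons. Its group means lay between 164 and 204 CPM in females and between 285 and 333 CPM in males, and its log2 changes were -0.16 (SE 0.166), 0.28 (SE 0.166), -0.22 (SE 0.145) and -0.10 (SE 0.145) in WT females, Cyp2b-null females, WT males and Cyp2b-null males, with adjusted p of 0.537, 0.220, 0.266 and 0.635. Under library size alone Aldh1a7 was called higher in Cyp2b-null females, at 0.53 (adjusted p = 0.0189). A difference between the neighbours in their diet response was not tested.

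Aldh1a2 (Entrez 19378, protein coding, plus strand, chr9:71215789-71296243) encodes the retinal dehydrogenase best known from embryos and mesothelial cells. It was counted 65 times in all 32 libraries, at most 16 times in 1 library, and was at 0 in 14 of them. The 16 ND libraries held 12 counts, with 10 libraries at 0, and the 16 CDAHFD libraries held 53 counts, with 4 at 0. The library with 16 counts was CDAHFD-fed Cyp2b-null male replicate 3. Fitted without the filter on low counts, its log2 changes with diet were 1.31 (SE 1.139), 1.12 (SE 1.230), 1.66 (SE 1.060) and 1.96 (SE 0.966) in WT females, Cyp2b-null females, WT males and Cyp2b-null males, with adjusted p of 0.550, 0.590, 0.331 and 0.154, so none was called. A count of 0 allows up to 3 counts in a library, and most libraries lay at or below that floor.

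Cyp26a1 (Entrez 13082, protein coding, plus strand, chr19:37697738-37701536) encodes the main retinoic acid hydroxylase of liver. A stretch of its promoter is shown because it holds the only retinoic acid response element-like letters found among the windows of the 9 genes. The search took direct repeats of the half-sites AGGTCA or AGTTCA, and of their forms GGGTCA or GGTTCA, on both strands with 1, 2 or 5 bases between them. A repeat with 5 bases between occurred in 32 of the 32851 RefSeq windows (0.0974%), and of the 9 genes in Cyp26a1 alone, on the minus strand at chr19:37697776-37697792, 32 to 16 bases before the RefSeq start and inside the span of the gene given above, which begins farther upstream. The repeats with 1 and 2 bases between occurred in 0.222% and 0.268% of windows and in none of the 9 genes. The bases run from chr19:37697768-37697797 on the plus strand, with the repeat of the minus strand, and the bases between its half-sites, in capitals.
Cyp26a1 promoter: attaaagaTGAACTTTGGGTGAACTaattt

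Cyp26a1 was low and spread widely between libraries, with a coefficient of variation of 23.9 to 96.3% within groups. ND-fed WT females measured 45.0, 15.2, 38.3 and 25.5 CPM and CDAHFD-fed WT females 24.3, 14.1, 5.33 and 2.42 CPM. These overlapped, and the fall of 1.48 (SE 0.465, adjusted p = 0.0235) was lost under DESeq2 (adjusted p = 0.0673), under library size alone (adjusted p = 0.0605) and without ND replicate 1 or 3 or CDAHFD replicate 3 or 4 (adjusted p from 0.0541 to 0.0919). Cyp2b-null females had 17.6, 36.4, 42.9 and 15.4 CPM on ND and 22.6, 15.1, 13.7 and 15.4 CPM on CDAHFD, with a change of -0.74 (SE 0.448, adjusted p = 0.222) that was called without the filter on low counts (-0.79, adjusted p = 0.000606). The male groups were separate. WT males measured 16.1, 37.1, 42.7 and 11.2 CPM on ND and 10.45, 7.57, 5.41 and 7.51 CPM on CDAHFD. ND-fed Cyp2b-null males had 80.5, 19.7, 15.1 and 16.6 CPM, the 80.5 being the highest value of the gene in any library, and CDAHFD-fed Cyp2b-null males 8.07, 13.3, 5.92 and 7.07 CPM. Cyp26a1 fell by 1.83 (SE 0.501, adjusted p = 0.00742), or 3.56-fold, in WT males and by 1.97 (SE 0.479, adjusted p = 0.00250), or 3.93-fold, in Cyp2b-null males. Without ND-fed Cyp2b-null male replicate 1 the fall in Cyp2b-null males was 0.98 on the log2 scale (adjusted p = 0.0450).

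The second question was whether loss of the Cyp2b genes changed these genes. By edgeR, 0 of the 8 genes tested were called between genotypes on either diet in either sex, and 0 for a difference of the diet response between genotypes. DESeq2 also called 0 in each of these 6 comparisons. At an unadjusted p below 0.05 there were 2 genes in CDAHFD-fed females, Adh1 (log2 change 0.42) and Rbp4 (0.37), beside 771 of all 13226 genes tested, and 0 in the other 5 comparisons. Few genes were called at all: 0.0756% of genes in ND-fed females, 0.0227% in CDAHFD-fed females, 0.0371% in ND-fed males and 0.0297% in CDAHFD-fed males, with 0% and 0.00743% for the difference of the diet response in females and males. The log2 changes of Cyp2b-null over WT ran from -0.32 to 0.56 in females (SE 0.134 to 0.471, adjusted p 0.826 to 0.996) and from -0.26 to 0.33 in males (SE 0.122 to 0.526, adjusted p 0.700 to 0.99994). The counts of 2 genes called with diet in Cyp2b-null and 6 in WT females became 5 and 6 without CDAHFD-fed Cyp2b-null female replicate 3, and 3 and 2 under library size alone. The differences of the response ranged from -0.18 to 0.74 in females and from -0.35 to 0.15 in males. For Cyp26a1 in males they rested on ND-fed Cyp2b-null male replicate 1: without it the difference of the response was 0.85 (adjusted p = 0.711) and the genotype change on ND -0.66 (adjusted p = 0.547).

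The third question was how the sexes differed on ND. In 1 fit of all 32 libraries, 4 of the 8 genes were called between ND-fed WT males and females, where 17.8% of the 14020 genes tested were called. Aldh1a1 was higher in males by 1.08 (SE 0.149, adjusted p = 2.58e-06), Adh4 by 0.97 (SE 0.152, adjusted p = 2.23e-05) and Aldh1a7 by 0.74 (SE 0.162, adjusted p = 0.00152). Rdh16 was lower in males by a log2 change of -0.71 (SE 0.161, adjusted p = 0.00211). The libraries of the sexes did not overlap in any of these 4 genes, where 18.1% of all genes tested did not overlap, and the call of Aldh1a7 was lost with a replicate block (adjusted p = 0.0614). Adh1, which also did not overlap, was lower in males by a log2 change of -0.37 that was not called (SE 0.146, adjusted p = 0.0733) and was called under library size alone (adjusted p = 0.0179), without the libraries absent from the heat maps (adjusted p = 0.0232) or without ND-fed WT female replicate 2 (adjusted p = 0.0393). For Rbp4, Adh5 and Cyp26a1 the log2 differences were 0.01, 0.21 and -0.17. The CPM values above were scaled separately for each sex, whereas this test scaled all libraries together. Each sex had its own count table, so sex cannot be told apart here from any difference in handling between the tables.

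Other genes of retinoid and alcohol metabolism were taken as a list of 57 genes, of which 44 were tested in females and 42 in males. With diet, 18 were called in WT females (6 higher, 12 lower), 18 in Cyp2b-null females (6 higher, 12 lower), 23 in WT males (9 higher, 14 lower) and 25 in Cyp2b-null males (8 higher, 17 lower). Over all genes tested, 24.1, 30.8, 33 and 37.4% were called in the same order. Of all genes, 13.9, 16.9, 18 and 20.3% were called higher and 10.2, 13.9, 15 and 17.1% lower. Under library size alone the split was 11 higher and 7 lower in WT females, 12 and 7 in Cyp2b-null females, 15 and 9 in WT males, and 12 and 11 in Cyp2b-null males. No gene of the list was called between genotypes. In each sex the changes below are log2 changes of CDAHFD over ND in WT mice by edgeR. Among the uptake and carrier genes, Ttr, the transthyretin that carries RBP4, fell by 0.83 in females (from 7709 to 4334 CPM) and by 0.75 in males. The call of Ttr in WT males was lost under library size alone (adjusted p = 0.115). Of the ester genes, 4 of 7 were called lower in females and 3 of 6 in males. The carboxylesterases Ces1d, at -2.18 in females and -2.78 in males, and Ces1f, at -1.64 and -2.70, were among them, and in males the mean of Ces1d went from 998 to 146 CPM. Lrat, which esterifies retinol, was not called (0.33, adjusted p = 0.356 in females and 0.20, adjusted p = 0.553 in males).

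Among 13 genes of retinol and retinal interconversion tested in females, 2 were called higher and 4 lower in each genotype, and among 12 in males 3 higher and 5 lower in WT. Rdh11, a microsomal retinal reductase, fell by 2.15 in WT females and by 1.34 in WT males. Dhrs9, a short-chain dehydrogenase of retinol, rose by 2.50 in females and 1.90 in males, and Rdh9, a relative of Rdh16 on chromosome 10, rose by 0.81 and 1.94. The Rdh9 response differed between the sexes by 1.16 (adjusted p = 0.0474), the only 1 of the list called in that test. No gene of the list was called higher in it with RLE factors, with a filter of 1 CPM in 4 libraries, with only the groups compared, or in the 10 fits without ND-fed female replicate 1 or 3, ND-fed male replicate 2 or 4, CDAHFD-fed female replicate 2, 3 or 4, or CDAHFD-fed male replicate 2, 3 or 4. With TMM scaling, Rdh9 was called higher and Rdh16 lower with diet in WT mice of both sexes. In WT males Rdh16 was at -0.02 under library size alone (adjusted p = 0.927), and its call was lost without ND replicate 3 (adjusted p = 0.0571). Whether Rdh9 and Rdh16 shared reads is not known, since the handling of such reads is not given in the sources used here. Aldh8a1, the only other retinal oxidation gene tested, fell by 0.83 and 0.92, and Cyp26b1, a CYP26 enzyme like Cyp26a1, by 1.89 and 2.14. The call of Cyp26b1 in WT females was lost under DESeq2 (adjusted p = 0.0816), under library size alone and without ND replicate 1 or 3 or CDAHFD replicate 2, 3 or 4 (adjusted p up to 0.186). Bco1, which cleaves beta-carotene to retinal, rose by 1.04 and 1.24. Bco2, which cleaves carotenoids at another bond, was called lower in WT males (-0.61, adjusted p = 0.00309) and Cyp2b-null males (-0.94), with -0.34 (adjusted p = 0.191) in WT females.

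Of the 6 retinoid receptors, Rarg was called higher in WT females (0.77, adjusted p = 0.0338) and WT males (0.89), and Rarb was called higher in WT males (1.19, adjusted p = 0.00640) with 0.42 (adjusted p = 0.408) in WT females. In WT females the call of Rarg was lost with a replicate block (adjusted p = 0.0512) and without any of ND replicates 1, 2 and 3 or CDAHFD replicates 1, 2 and 3 (adjusted p up to 0.109), and in WT males without CDAHFD replicate 3 (adjusted p = 0.0609). Rara (0.34 and -0.21) and Rxra (-0.06 and 0.02) were not called. Tgm2, transglutaminase 2, which responds to retinoic acid in many cells, rose by 1.27 in WT females, from 146 to 352 CPM, and by 1.06 in WT males. Among the other alcohol and aldehyde oxidation genes, Cat, the peroxisomal catalase, fell by 0.70 and 0.89, and Aldh1b1, a mitochondrial aldehyde dehydrogenase, rose by 1.72 in males, with 0.62 (adjusted p = 0.0522) in females. Tgm2 is also expressed by cell types whose markers rose with the diet, and their part in its rise was not tested.

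**Figure D4:**
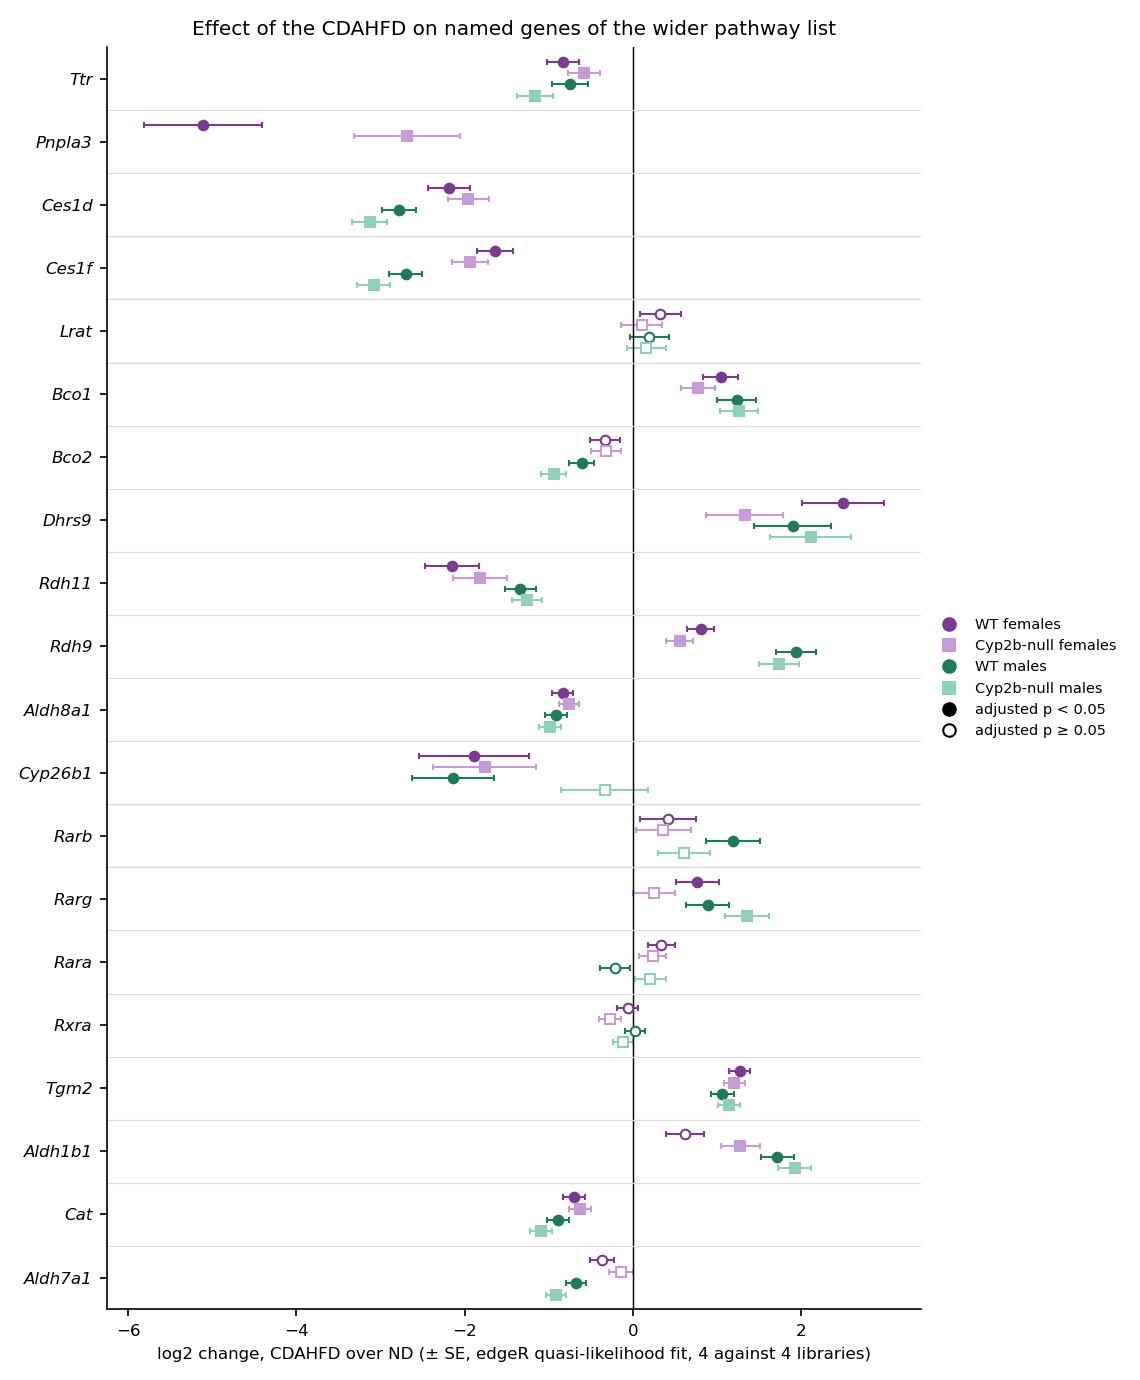
Log2 fold change of CDAHFD over ND for named genes of the wider list, grouped by role, in WT and Cyp2b-null mice of each sex, with called changes marked. Ces1d and Ces1f lie lowest among the genes tested in both sexes, at -3.13 and -3.08 in Cyp2b-null males, and Dhrs9 highest, at 2.50 in WT females.

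The genes whose pattern was most like that of each member were found by the mean, over both tables, of Pearson r of log2 CPM across the 16 libraries of a table, among 12978 genes. Since the libraries of a table share diets and scaling, these are descriptions. Adh5 was most like Mdh1, the cytosolic malate dehydrogenase (mean r 0.973), Ttc36 (0.972) and Haao (0.962), and Rbp4 was most like Gm8566 (0.939), Sod1 (0.934) and Asgr1 (0.933), a hepatocyte lectin receptor. Adh1 was most like Asgr1 (0.927), followed by Gm8566 (0.916) and Rbp4 (0.912). Rdh16 was nearest to Cyp3a25 (0.922), a liver cytochrome P450, Pde3b (0.921) and Slc22a30 (0.919), and Adh4 to Slco1a1 (0.886), an organic anion transporter, Egfr (0.837) and Aox3 (0.811). Cyp26a1 was nearest to Inmt (0.830), Sephs2 (0.811) and Pbld2 (0.787). For Aldh1a1 the nearest were Nat8 (0.792), C9 (0.790) and Selenbp2 (0.767), and for Aldh1a7 Bhmt (0.816), Gm5096 (0.797) and Cyp2j6 (0.770). Aldh1a2 was not compared, since it did not pass the filter.

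Within groups, deviations of the 32 libraries from their group means went together for several pairs of the 28 possible. The coefficients were 0.690 for Adh5 and Rbp4, 0.681 for Adh1 and Rbp4, 0.632 for Adh1 and Adh5, and 0.603 for the neighbours Aldh1a1 and Aldh1a7, whose reads may be shared. By sex, Adh1 and Rbp4 had 0.835 in females and 0.445 in males, and Adh1 and Adh5 0.8485 and 0.269. CDAHFD-fed Cyp2b-null female replicate 3, the library that stood apart, was the highest of its group in Adh1, Adh5 and Rbp4 and the lowest in Adh4. Adh1 and Adh4 ran against each other in females (r = -0.529) and hardly in males (r = -0.0612), across 16 libraries in each sex. Libraries of one group differ together in many genes, so these values also carry what is common to a library.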

How the data were processed

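Liver RNA, extracted with TRIzol, was made into NEB Next Ultra libraries for the NovaSeq. The authors used Trimmomatic for trimming, GSNAP for alignment against the GRCm38.p6 build and featureCounts of Subread for counting per gene, and they deposited raw counts as 1 table per sex. Strand and multiple-mapping settings are not given in the sources used here. Each table held 41585 entries, 27 of them symbols turned into dates and 4 repeated.

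Counts were tested as deposited with edgeR 4.0.16 in R 4.3.3: TMM scaling, filterByExpr (minimum count 10, total 15), quasi-likelihood fits of the 4 groups of a sex, and 1 fit of all 8 groups for sex differences, with Benjamini-Hochberg adjustment and a threshold of 0.05. Levels per length used the exon length of RefSeq-linked transcripts. The SE is the log2 change over the square root of F. Alternatives were DESeq2 1.42.0, other scalings and filters, a replicate block and leaving out libraries. The script was tested on simulated data. The members and lists were chosen with earlier results of these data known. All 9 members were named, with up to 3 called genes per role of the wider list, Lrat, Rara and Rxra, and the 3 genes most like each member that passed the filter. The values of 1 gene of the wider list are not reported here.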

Additional observations from a re-analysis of the deposited data

Results flagged for a closer look

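For 64 groups of 4 libraries (8 genes in 8 groups) the gap between the outermost library and the nearest other, divided by the range, was compared with the 95% critical value of Dixon's test. Chance gives about 1 in 20, or 3.2 groups, and 3 exceeded it. Adh4 was highest in CDAHFD-fed WT male replicate 1 at 199 CPM, against 139 to 146 CPM in the others (ratio 0.892). Aldh1a1 was lowest in ND-fed WT male replicate 4 at 1717 CPM, against 1969 to 2012 CPM (0.853). Cyp26a1 was highest in ND-fed Cyp2b-null male replicate 1 at 80.5 CPM, against 15.1 to 19.7 CPM (0.930). The diet response of Rdh16 differed between the sexes by 0.90, as tested in 1 fit of both sexes.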

How the results depend on the processing

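Under 1712 refits of member results, 1592 kept direction and side of the threshold, 33 lost a call, 12 gained 1, 75 uncalled changes turned sign and 0 calls reversed. Library size alone gave 2 calls in WT females, 3 in WT males and 3 in Cyp2b-null males. Without the libraries absent from the heat maps, a setting on which female replicate 3 alone acted in females, Cyp2b-null females gave 5. With only the groups compared in the fit, edgeR called a difference of the diet response between sexes for 0 of the 8 genes. Leaving out 1 library gave 4 to 6 calls in WT females, 2 to 5 in Cyp2b-null females, 5 to 6 in WT males, 6 to 6 in Cyp2b-null males, 4 to 5 between sexes and 0 to 1 for the response. Causes were not tested.

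Replicate numbers did not pair libraries (mean r of 24 same-number pairs 0.00328 in females and 0.0195 in males). With a replicate block the counts were 6, 2, 6 and 6 with diet, 0 between genotypes, 3 between sexes and 1 for the response. Over all genes, calls between genotypes were 10, 3, 5 and 4 and ranged from 10 to 122, 3 to 69, 2 to 170 and 2 to 51 over the alternatives, calls for a difference of the diet response between genotypes were 0 and 1 and ranged from 0 to 46 and 1 to 95, calls between sexes were 2496 (728 to 2874), and calls for a difference of the response between sexes were 136 (79 to 469). Library size alone moved the share of genes called higher from 57.6 to 88.8% in WT females, 55 to 85.8% in Cyp2b-null females, 54.6 to 89.8% in WT males, 54.3 to 86.3% in Cyp2b-null males and 46.9 to 29% between sexes.

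The wider list had 12 to 17, 13 to 19, 22 to 25 and 23 to 27 calls with diet on leaving out 1 library. These alternatives for the list were chosen after seeing the data.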
